A study of Saccharomyces cerevisiae with 18 samples.

Results

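The genes described here are 32 genes of sulfur assimilation, methionine, cysteine and S-adenosylmethionine metabolism in Saccharomyces cerevisiae, chosen by name from a table that holds 6330 ORFs with a name of their own. They comprise 2 sulfate permease genes, 8 genes of sulfate activation and reduction, 6 of homocysteine and methionine synthesis, 4 of transsulfuration, 3 of the S-adenosylmethionine cycle, 4 permease genes for methionine and related compounds, and 5 regulators. The rule for a member is its name alone, and the list was drawn up with earlier results of these data known. All 32 passed the filter on low input signal that left 6013 ORFs, and these 6013 are the background for every count below.

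The study asked how RNA polymerase II (RNA Pol II) and the osmotic stress kinase Hog1 are distributed over genes after osmotic shock. Cells were grown in YEPD, a rich medium that supplies methionine and other amino acids, and cultures were split. One part received KCl to 0.4 M for 5 min, and the other was mock-treated by addition of YEPD. RNA Pol II was precipitated through its untagged subunit Rpb3 in wild type, in Δhog1, which lacks the kinase, and in Δsko1Δhot1, which lacks both the Sko1 and the Hot1 transcription factor. Hog1 was precipitated through a 3HA tag at its own locus in wild type and in Δsko1Δhot1. A mock IP (anti-HA antibody, no tagged target) and an input (sheared chromatin) from wild type were used, so the deletion strains are set against wild-type controls. All strains are W303, a laboratory background that carries trp1, leu2, ura3 and his3 mutations. In the strain list HOG1 was replaced by HIS3, SKO1 by LEU2 and HOT1 by URA3, and the tag on Hog1 came with HIS3. The strains therefore also differ in auxotrophies, and the marker genes and the deletions cannot be told apart as sources of a difference between strains. The one Δsko1Δhot1 strain of that list carries tagged Hog1, and the labels do not say whether the wild-type cells used for Rpb3 did, so the tag may differ in each comparison of Rpb3 between these strains.

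Each of the 14 libraries of the ORF table stands for 1 condition, with no replicate, so no p-value was computed and every value describes a library. Signal is expressed per ORF length and per library total. Levels of different genes can therefore be set side by side, but a loss of RNA Pol II from the whole genome would not be seen. Read depth per library is not known for these values. The median ORF had an Rpb3 signal of 7220 to 8280 in the 6 Rpb3 libraries. The 99th percentile was 12.6 times the median in mock-treated wild type, 6.49 times in mock-treated Δhog1 and 8.1 times in mock-treated Δsko1Δhot1, so the Δhog1 library spans a narrower range of signal, and the part of this in the values of the members was not tested. HOG1 and HOT1 were low in the strains labelled as lacking them, and SKO1 was not analysed here. Rpb3 at HOG1 was 667 and 1240 in Δhog1 against 18700 and 20500 in wild type, and at HOT1 it was 569 and 1060 in Δsko1Δhot1 against 6350 and 7820 in wild type.

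Yeast takes up sulfate, activates it with ATP, reduces it to sulfide and joins the sulfide to a carbon chain to make homocysteine, which is methylated to methionine or turned into cysteine. Methionine is converted to S-adenosylmethionine, the methyl donor of the cell, and the spent donor is hydrolysed back to homocysteine. In Saccharomyces cerevisiae many genes of sulfate assimilation are switched on by the activator Met4, which is brought to DNA by Cbf1, Met28, Met31 and Met32 and is held in check by the ubiquitin ligase subunit Met30 when methionine is plentiful.

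In mock-treated wild-type cells the pathway was split by level. The highest 5 members came from 4 roles: SAH1 had an Rpb3 signal of 53200, MET6 of 49900, SAM1 of 49600, CYS3 of 44100 and MUP1 of 40200. Each of these 5 exceeded the signal of at least 96.1% of the ORFs. The genes that take up and reduce sulfate lay near the median ORF, from 4970 for SUL1 to 9290 for MET14. The input signal of members ranged from 7950 to 12400 in the same treatment, and 16 of the 32 members were above their input in mock-treated wild type. In the mock-treated libraries of all 3 strains 13 members were above input, and 15 were below input in all 6 Rpb3 libraries. For those 15 a signal above background was not established, and a ratio between libraries may compare background values. Most ORFs share this place. In mock-treated wild type 4144 of all 6013 ORFs were at or below input, and the median ORF had 7340 against 9960 in the input. A place below input therefore does not by itself mark a value as background.

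**Figure D1:**
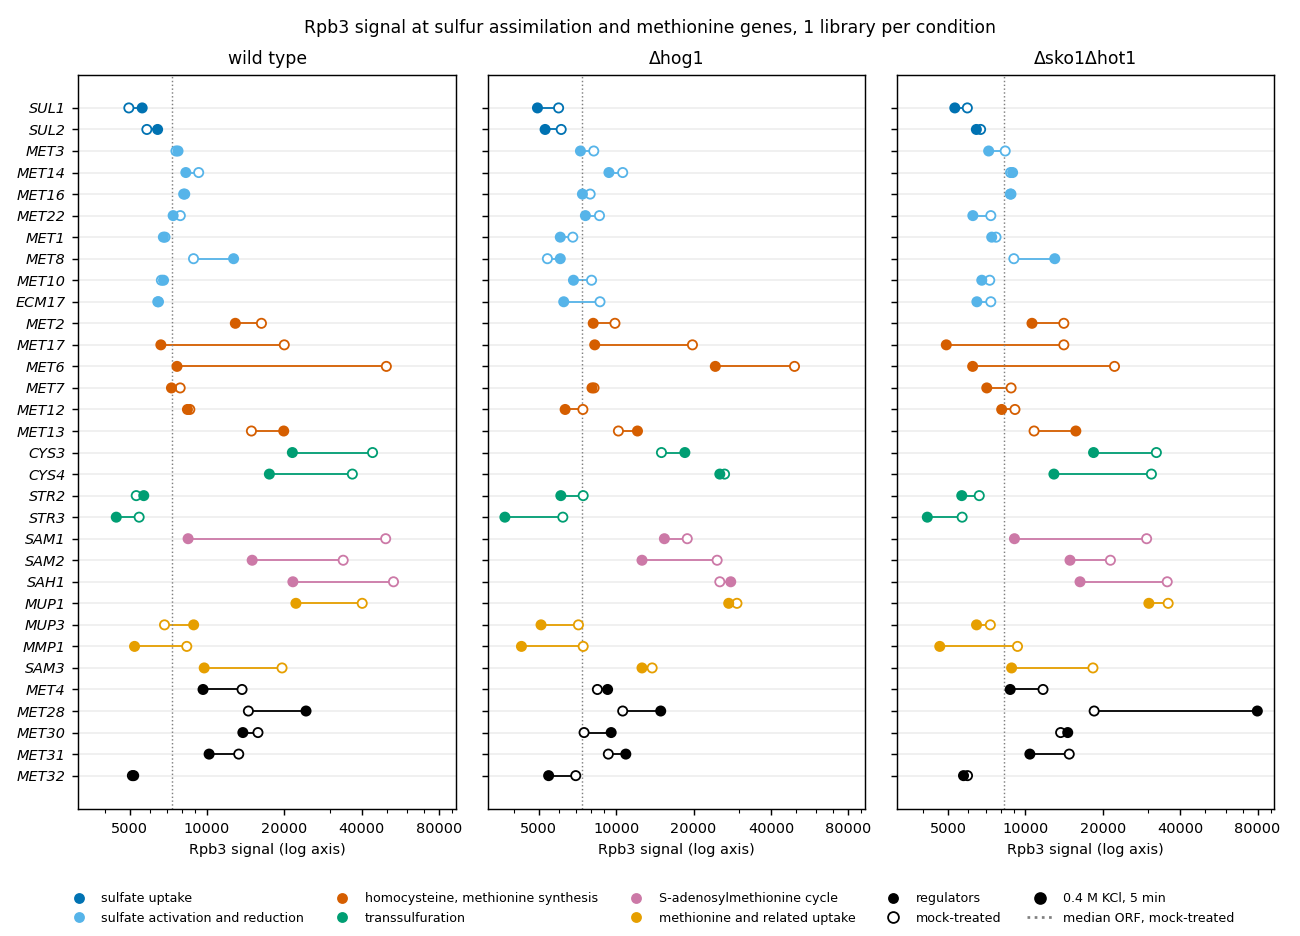
Rpb3 signal (horizontal, log axis) of the 32 genes in mock-treated cells (open circles) and after 5 min in 0.4 M KCl (filled circles), 1 library per circle, for wild type, Δhog1 and Δsko1Δhot1; colours give the role and the dotted line is the median ORF of the mock-treated library. MET6 went from 49900 to 7650 in wild type and from 49400 to 24300 in Δhog1, and MET28 reached 79800 in Δsko1Δhot1.

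Osmotic shock in wild type was compared as the log2 fold of Rpb3 signal in KCl over mock-treated, with 989 (0.1 times the median mock-treated input) added to both, and a difference was counted from 2-fold on. By this measure 7 of the 32 genes were lower (7.73% of all ORFs were) and 0 were higher (4.49% of all ORFs were). The 7 were MET6 and MET17 of homocysteine and methionine synthesis, SAM1, SAM2 and SAH1 of the S-adenosylmethionine cycle, and CYS4 and CYS3 of transsulfuration. The median log2 fold of the 32 genes was -0.12, against 0.04 for all ORFs, and 20 of the 32 were below 0 (2746 of all 6013 ORFs were). Summed over the list, the genes made up 0.757% of the summed Rpb3 signal in mock-treated wild type and 0.461% in KCl.

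In Δhog1 1 gene was lower, MET17 (0.0665% of all ORFs were, 4 of 6013), and 0 were higher (1.03% were). The median log2 fold of the members was -0.16, against -0.05 for all ORFs. In Δsko1Δhot1 5 genes were lower (7.97% of all ORFs were) and 1, MET28, was higher (6.19% were), with a median of -0.20 against -0.13. The 5 genes, MET6, SAM1, MET17, CYS4 and SAH1, are all among the 7 of wild type, and the 3 comparisons share no Rpb3 library. Over all ORFs the folds of wild type and Δsko1Δhot1 had a Pearson correlation of 0.85, so such overlap is not particular to the members. Over the 3 strains 8 genes passed 2-fold somewhere and 24 did not in any. The overlap and these 2 counts were not made over all ORFs.

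When input was subtracted from each Rpb3 signal first, with values below 0 set to 0, the genes lower numbered 13 in wild type, 4 in Δhog1 and 11 in Δsko1Δhot1, and those higher 2, 1 and 3. With 0.5 times the median input added in place of 0.1 times, the lower genes numbered 4, 0 and 3. SAM2, CYS4 and CYS3 in wild type then stood at -0.96, -0.90 and -0.89, MET17 in Δhog1 at -0.91, and MET17 and SAH1 in Δsko1Δhot1 at -0.95 and -0.93.

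**Figure D2:**
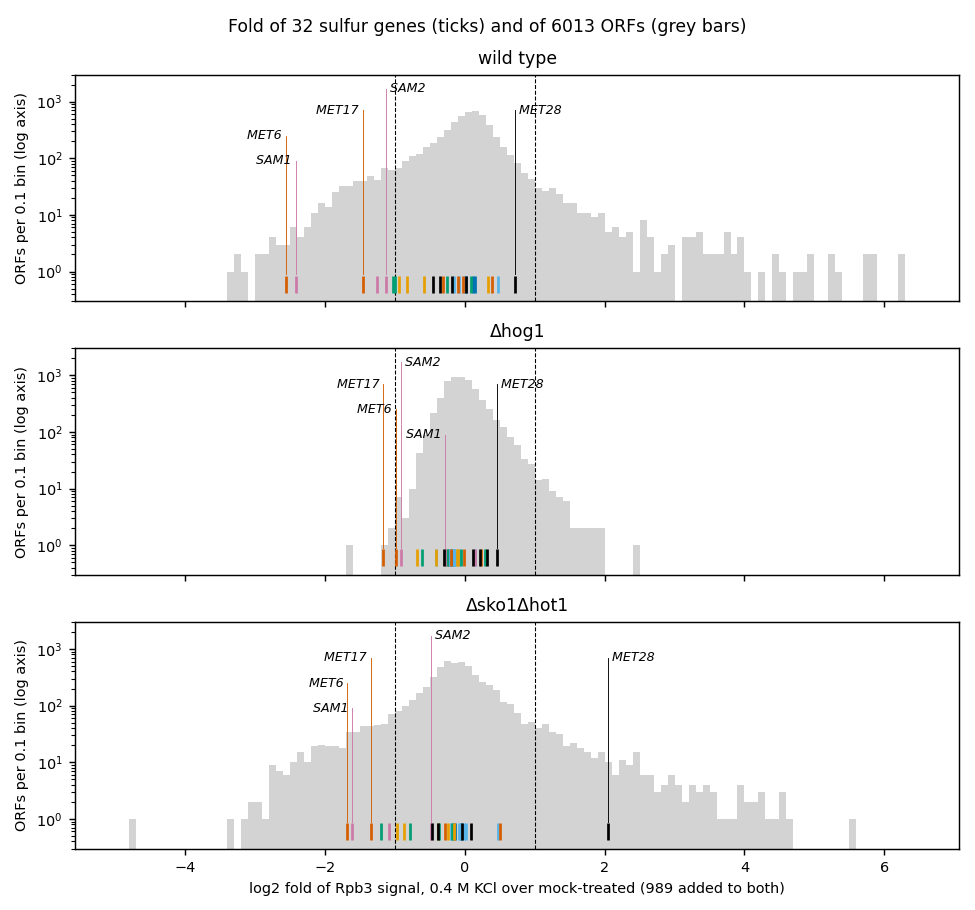
Log2 fold of Rpb3 signal, KCl over mock-treated with 989 added (horizontal), for the 32 genes (ticks, colours as the roles in the plot of signal) and for the 6013 ORFs (grey bars, number per bin of 0.1, log axis), with dashed lines at 2-fold. In Δhog1 the ORFs span a narrower range, and MET17 at -1.17, MET6 at -0.99 and SAM2 at -0.92 lie in its lower tail.

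The sulfate permeases SUL1 and SUL2, which bring sulfate into the cell, showed little Rpb3 in any library. SUL1 had a signal of 4970 mock-treated and 5600 in KCl in wild type, of 5970 and 4940 in Δhog1, and of 5940 and 5310 in Δsko1Δhot1. SUL2 had 5840 and 6430, 6110 and 5290, and 6690 and 6440 in the same order. All 12 values lay below the median ORF of their library, and the log2 folds ran from -0.23 to 0.14.

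The 8 genes of sulfate activation and reduction encode ATP sulfurylase (MET3), the kinase that phosphorylates its product (MET14), the reductase that follows (MET16), the phosphatase that removes the by-product (MET22), sulfite reductase subunits (MET10 and ECM17) and enzymes of its siroheme cofactor (MET1 and MET8). MET22 is also known as a target of salt toxicity in yeast. None passed 2-fold in any strain. In wild type their log2 folds ran from -0.15 at MET14 to 0.47 at MET8 with a median of 0.01, and the medians were -0.16 in Δhog1 and -0.07 in Δsko1Δhot1. The signal of MET3 was 7580 mock-treated and 7720 in KCl in wild type, that of MET16 was 8120 and 8200, and that of MET22 was 7880 and 7390. ECM17 was the lowest of the group in Δhog1, at 8650 and 6250, a log2 fold of -0.41.

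MET8 had an Rpb3 signal of 8870 mock-treated and 12700 in KCl in wild type, of 5400 and 6060 in Δhog1, and of 9010 and 13000 in Δsko1Δhot1. Its log2 folds were 0.47, 0.14 and 0.48. The mock IP, which has no Rpb3 antibody, moved the same way at this gene, from 3840 to 8230, a log2 fold of 0.93 and the highest of the 32 genes. The part of that difference in the Rpb3 values was not tested.

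MET6, the methionine synthase that methylates homocysteine, showed the lowest fold of the list in wild type. Its Rpb3 signal was 49900 mock-treated and 7650 in KCl in wild type, 49400 and 24300 in Δhog1, and 22200 and 6230 in Δsko1Δhot1. In KCl this left 15.3% of the mock-treated signal in wild type, 49.2% in Δhog1 and 28.1% in Δsko1Δhot1. The log2 folds were -2.56, -0.99 and -1.68. MET6 ranked 16th from the lowest of 6013 ORFs in wild type, 5th in Δhog1 and 164th in Δsko1Δhot1. The mock-treated levels of wild type and Δhog1 were nearly equal (log2 ratio -0.01) while in KCl Δhog1 was 1.55 above wild type on the log2 scale.

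MET17, the sulfhydrylase that joins sulfide to O-acetylhomoserine, was the 1 gene of the list more than 2-fold lower in all 3 strains. Its Rpb3 signal was 20000 mock-treated and 6620 in KCl in wild type, 19800 and 8250 in Δhog1, and 14100 and 4920 in Δsko1Δhot1. The KCl level was thus 33.1%, 41.7% and 34.9% of the mock-treated level, and the 3 mock-treated values all lay above the 3 values in KCl. The log2 folds were -1.46, -1.17 and -1.35. In Δhog1 this was the 2nd lowest fold of 6013 ORFs, while in wild type it ranked 226th. The calls depended on the processing: with 0.5 times the median input added, MET17 was -0.91 in Δhog1 and -0.95 in Δsko1Δhot1. MET6 also passed 2-fold in all 3 strains with 0.02 times the median input added (-1.02 in Δhog1), after division by input (-1.04) and after input subtraction (-1.57), and SAM2 did so after input subtraction (-2.56, -3.14 and -1.54).

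Of the 4 other genes of this group none passed 2-fold. MET2, which acetylates homoserine, had log2 folds of -0.32 in wild type, -0.25 in Δhog1 and -0.38 in Δsko1Δhot1. MET7, which adds glutamate to folates, had -0.10, -0.02 and -0.28. MET13 and MET12 encode the isozymes of methylenetetrahydrofolate reductase, which supplies the methyl group for methionine, and they differed in level. MET13 had a signal of 14900 and 19900 in wild type, 10200 and 12100 in Δhog1, and 10800 and 15700 in Δsko1Δhot1, higher in KCl in each strain (log2 folds 0.39, 0.23 and 0.50). MET12 had 8580 and 8400, 7420 and 6330, and 9100 and 8080 (log2 folds -0.03, -0.20 and -0.15). At MET13 the wild-type controls were also higher in KCl, with log2 folds of 0.24 for the input and 0.42 for the mock IP. Rpb3 over input at MET13 was 1.48 and 1.64 in wild type, 1.01 and 1 in Δhog1, and 1.07 and 1.3 in Δsko1Δhot1.

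Transsulfuration runs from homocysteine to cysteine through CYS4 and CYS3 and back through STR2 and STR3. CYS4, the cystathionine beta-synthase gene, had a signal of 36800 mock-treated and 17500 in KCl in wild type, 26400 and 25300 in Δhog1, and 30900 and 12900 in Δsko1Δhot1. CYS3, the cystathionine gamma-lyase gene, had 44100 and 21500, 15000 and 18500, and 32300 and 18400. In wild type and Δsko1Δhot1 both genes were thus lower in KCl, CYS4 at 47.6% and 41.7% of its mock-treated signal and CYS3 at 48.8% and 57.0%, with CYS3 at the 2-fold line in wild type. In Δhog1 the KCl level was 95.8% of the mock-treated level for CYS4 and 123% for CYS3. After division by input the log2 fold of CYS3 in Δhog1 was 0.04. The mock-treated level of CYS3 in Δhog1 was already below the KCl level of wild type. The genes of the reverse route had little signal: STR2 lay between 5310 and 7440 and STR3 between 3690 and 6200 over the 6 Rpb3 libraries. STR3 had log2 folds of -0.25 in wild type, -0.62 in Δhog1 and -0.37 in Δsko1Δhot1.

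SAM1 and SAM2 encode the isozymes of S-adenosylmethionine synthetase, and SAH1 encodes the hydrolase that returns the spent donor to homocysteine. SAM1 and SAM2 are close in sequence, and only tags that map to 1 place were kept, so parts common to both could not contribute to either. SAM1 had a signal of 49600 mock-treated and 8450 in KCl in wild type, 18900 and 15400 in Δhog1, and 29600 and 9060 in Δsko1Δhot1. SAM2 had 33900 and 15000, 24700 and 12600, and 21400 and 14900.

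The isozymes differed in their strain pattern. SAM1 had log2 folds of -2.42 in wild type, -0.28 in Δhog1 and -1.61 in Δsko1Δhot1, and SAM2 had -1.13, -0.92 and -0.49. SAM2 ranked 10th from the lowest of 6013 ORFs in Δhog1, SAM1 24th from the lowest in wild type. SAH1 had a signal of 53200 and 21600 in wild type, 25300 and 27900 in Δhog1, and 35600 and 16300 in Δsko1Δhot1. Its log2 folds were -1.26, 0.14 and -1.08, so that SAH1, like SAM1, was past 2-fold in wild type and Δsko1Δhot1 and not in Δhog1. For SAM1 and SAH1 the mock-treated signal of Δhog1 was itself lower than that of wild type, by 1.35 and 1.04 on the log2 scale.

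**Figure D3:**
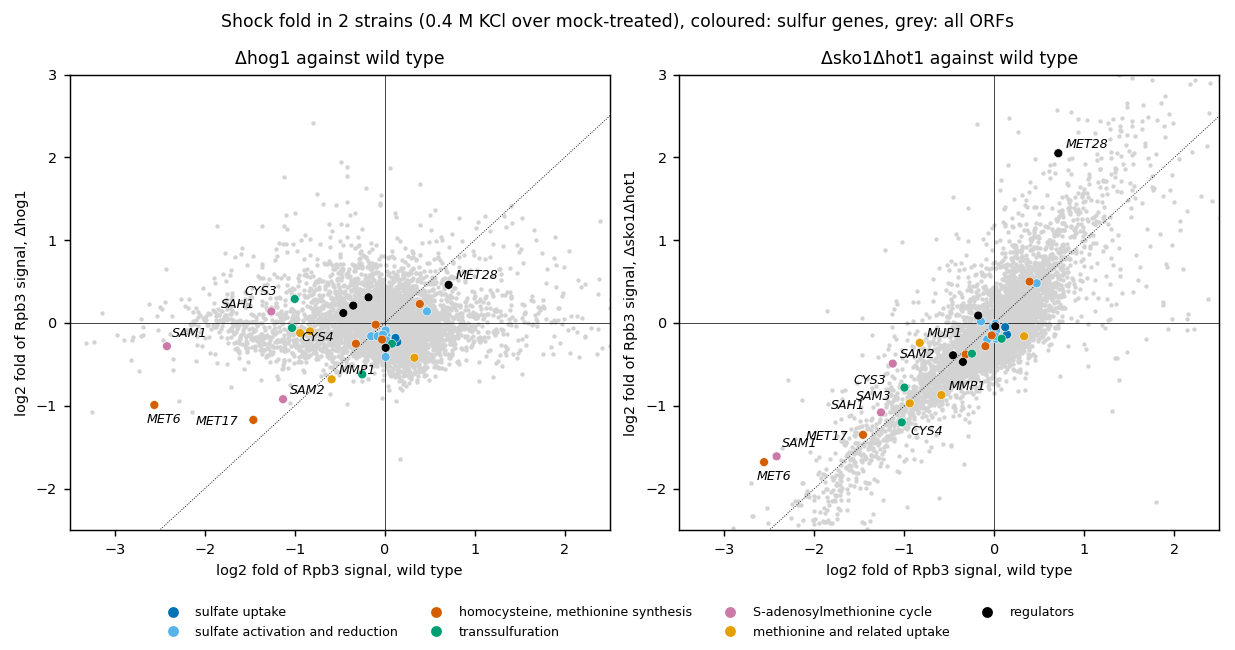
Log2 fold of Rpb3 signal (KCl over mock-treated) of Δhog1 (left) and Δsko1Δhot1 (right) on the vertical axis against that of wild type on the horizontal axis, for the 32 genes (coloured by role) and all other ORFs (grey; 66 and 102 ORFs lie outside the axes); the dotted line marks equal folds. SAM2, MMP1 and MET17 lie close to the line in Δhog1, where SAM1, SAH1, CYS3 and CYS4 lie near 0.

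Permeases for methionine and related compounds were split between high and low levels. MUP1, the high-affinity methionine permease, had a signal of 40200 and 22200 in wild type, 29500 and 27400 in Δhog1, and 35900 and 30200 in Δsko1Δhot1 (log2 folds -0.83, -0.10 and -0.24). SAM3, the S-adenosylmethionine permease, had 19600 and 9760, 13800 and 12600, and 18300 and 8830 (log2 folds -0.94, -0.12 and -0.97). Neither passed 2-fold in any strain with 989 added, but SAM3 lay at the line, its KCl signal being 49.8% of the mock-treated signal in wild type and 48.3% in Δsko1Δhot1. SAM3 passed in Δsko1Δhot1 with 0.02 times the median input added (-1.03) and after division by input (-1.02), and in wild type and Δsko1Δhot1 after input subtraction (-3.39 and -3.33). MUP1 passed in wild type after division by input (-1.02) and after input subtraction (-1.37). MUP3, a low-affinity methionine permease, had 6840 and 8880, 7130 and 5100, and 7300 and 6450, and was the only permease of the 4 with a fold above 0 in wild type (0.33, against -0.42 in Δhog1). MMP1, the S-methylmethionine permease, had 8350 and 5230, 7440 and 4280, and 9310 and 4640. Its 3 KCl values lay below its 3 mock-treated values, with log2 folds of -0.59, -0.68 and -0.87, and in Δhog1 it ranked 34th from the lowest of 6013 ORFs. Its Rpb3 signal over input was 0.992 and 0.59 in wild type, 0.884 and 0.483 in Δhog1, and 1.11 and 0.524 in Δsko1Δhot1. Both Δhog1 values thus lay below input, where a signal above background was not established.

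Among the regulators the activator gene MET4 had a signal of 13700 and 9660 in wild type, 8450 and 9260 in Δhog1, and 11700 and 8720 in Δsko1Δhot1. MET30, the ubiquitin ligase subunit that restrains Met4, had 15800 and 13800, 7500 and 9560, and 13700 and 14600. MET31 and MET32 encode related zinc finger proteins: MET31 had 13300 and 10200, 9320 and 10900, and 14800 and 10400, and MET32 had 5130 and 5190, 6960 and 5460, and 5950 and 5740. None of these 4 passed 2-fold: the log2 folds of MET4 were -0.46, 0.12 and -0.39, those of MET30 -0.18, 0.31 and 0.09, those of MET31 -0.35, 0.21 and -0.47, and those of MET32 0.01, -0.30 and -0.04.

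MET28, a bZIP protein that strengthens the binding of the Met4 complex to DNA, was the highest member in KCl in wild type and in Δsko1Δhot1. Its Rpb3 signal was 14500 mock-treated and 24300 in KCl in wild type, 10600 and 14900 in Δhog1, and 18500 and 79800 in Δsko1Δhot1. The KCl level was 168%, 141% and 431% of the mock-treated level, so each strain was higher in KCl, and the KCl value of Δsko1Δhot1 was over 3 times that of wild type. The log2 folds were 0.71, 0.46 and 2.05. In KCl the signal of Δsko1Δhot1 was 1.68 above wild type on the log2 scale, the 20th highest such ratio of 6013 ORFs, and MET28 was the 1 member more than 2-fold higher in this comparison (1.48% of all ORFs were). No member was more than 2-fold lower (1.16% were). The fold of Δsko1Δhot1 exceeded that of wild type by 1.34 on the log2 scale, 29th from the highest of 6013 ORFs, where the median difference was -0.05 over the 32 genes and -0.12 over all ORFs.

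The wild-type input at MET28 was 9290 mock-treated and 9820 in KCl, and the wild-type mock IP was 8520 and 13400, a log2 fold of 0.60. Controls of Δsko1Δhot1 were not analysed here, so what the mock IP would show in that strain was not tested. YIR016W, the ORF on one side of MET28 in the order of the R64 reference, had a signal of 18500 and 31600 in wild type, 6290 and 9760 in Δhog1, and 15700 and 41100 in Δsko1Δhot1 (log2 folds 0.74, 0.56 and 1.33). YAP5, on the other side, had 11600 and 15300, 8160 and 8320, and 12200 and 20900 (log2 folds 0.37, 0.03 and 0.73). Both neighbours were thus also higher in KCl in Δsko1Δhot1. In KCl their ratio of Δsko1Δhot1 to wild type was 0.37 and 0.43 on the log2 scale, against 1.68 at MET28. The wild-type mock IP was 3650 mock-treated and 9360 in KCl at YIR016W, and 7520 and 8870 at YAP5. The wild-type input was 6400 and 8340 at YIR016W, and 9440 and 9950 at YAP5. The part of these control differences in the Rpb3 values was not tested.

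**Figure D4:**
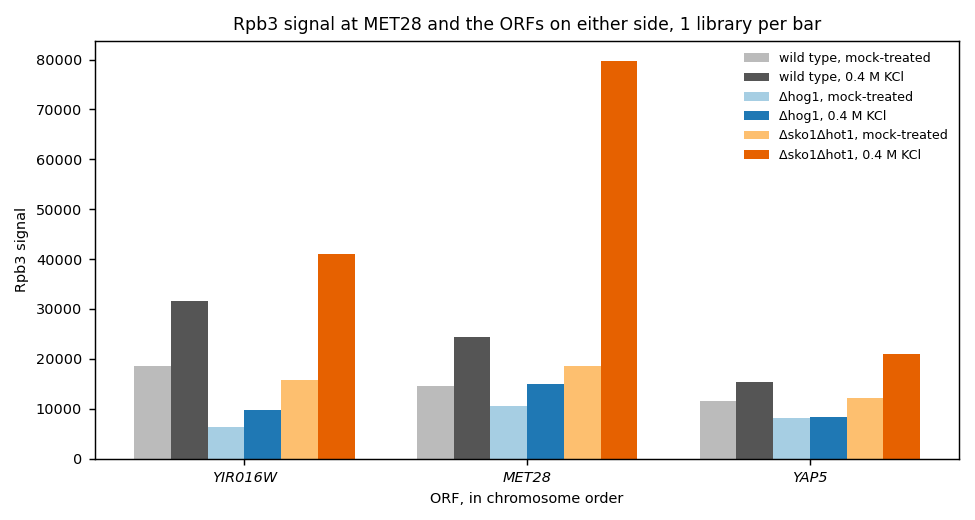
Rpb3 signal (vertical axis, from 0) at MET28 and at the ORFs on either side of it, 1 bar per library, for wild type, Δhog1 and Δsko1Δhot1, mock-treated and in 0.4 M KCl. The bar of MET28 in Δsko1Δhot1 in KCl reaches 79800, against 41100 at YIR016W and 20900 at YAP5 in the same library.

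The levels of the strains before shock were compared in the mock-treated libraries. Against wild type, 3 members were more than 2-fold lower in Δhog1 (5.06% of all ORFs were) and 0 were higher (1.28% were): CYS3 at -1.50, SAM1 at -1.35 and SAH1 at -1.04 on the log2 scale. MET30 was just short of that size at -0.98, while MET6 and MET17 were both at -0.01. The median over the 32 genes was -0.09, against 0.02 for all ORFs. In Δsko1Δhot1 1 member was more than 2-fold lower (0.399% of all ORFs were) and 0 were higher (0.2% were). This was MET6 at -1.13, the 15th lowest of 6013 ORFs. Among the members SAM1, SAM2 and SAH1 followed at -0.73, -0.64 and -0.57, so all 3 genes of the S-adenosylmethionine cycle were lower than wild type in both deletion strains. This was not particular to the cycle. Of the 53 genes that make other amino acids, 48 were below 0 in mock-treated Δhog1 (median -0.40, 5 at least 2-fold lower). In mock-treated Δsko1Δhot1 45 of the 53 were below 0 (median -0.23, 8 at least 2-fold lower). A difference past 2-fold in this strain, as at MET6, was thus not particular to the sulfur genes.

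In KCl 1 member, MET6, was more than 2-fold higher in Δhog1 than in wild type (5.22% of all ORFs were) and 0 were lower (5.12% were). SAM1 followed at 0.80, from 8450 in wild type to 15400 in Δhog1. The lowest was MET8 at -0.96. The share of summed Rpb3 signal taken by the 32 genes went from 0.716% to 0.566% in Δhog1 and from 0.661% to 0.531% in Δsko1Δhot1, so it was lower in KCl in each strain.

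Level before shock and fold were looked at together. The 16 members above input in mock-treated wild type had a median log2 fold of -0.88 in wild type, 0.03 in Δhog1 and -0.48 in Δsko1Δhot1. All 1869 ORFs above input had -0.36, 0.17 and -0.29. The 45 genes above input from a list of genes that make other amino acids had -0.71, 0.10 and -0.64. In wild type a high mock-treated value enters both the split and the fold. The 16 members at or below input had medians of 0.01, -0.20 and -0.15, and in Δhog1 all 16 were below 0, as were 2997 of all 4144 such ORFs. Across genes, which are not independent replicates, the mock-treated level in Δhog1, a library that the wild-type fold does not use, had a Pearson correlation of -0.82 with the wild-type fold over the 32 genes and of -0.51 over all ORFs. The folds of wild type and Δsko1Δhot1 correlated at 0.86 over the 32 genes and 0.85 over all ORFs, and those of wild type and Δhog1 at 0.46 and 0.04 (Spearman 0.21 and -0.01). The Δhog1 fold went otherwise: the mock-treated level in wild type correlated with it at -0.01 over the 32 genes and 0.53 over all ORFs. Each library has its own depth and composition, and these values are descriptions.

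In Δhog1, where 4 ORFs passed 2-fold downward, the 10 lowest of the 6013 ORFs included MET17, MET6 and SAM2, and the 100 lowest also included MMP1 and STR3. These 5 have no role in common within the list: MET17 and MET6 make homocysteine and methionine, SAM2 uses methionine, MMP1 takes up S-methylmethionine and STR3 returns cystathionine to homocysteine. At MMP1 and STR3 both Δhog1 values were below input, at 0.884 and 0.483 times it and at 0.659 and 0.389 times. The next genes of the list were MUP3 at -0.42 and ECM17 at -0.41, also below input in both treatments.

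Genes next to the pathway that are not among the 32 were taken as a list of 39. In wild type 3 of the 39 were lower and 1 was higher, with a median log2 fold of -0.02. Those lower were SHM2, cytosolic serine hydroxymethyltransferase, which feeds the folate cycle (32100 and 8360, log2 fold -1.82), IRC7, a beta-lyase (28300 and 8560, -1.62), and GCN4, the activator of amino acid synthesis (90200 and 34100, -1.38). PDC6, a minor pyruvate decarboxylase known to be made under sulfur limitation, was higher (5900 and 35700, 2.41). Its Hog1 signal was also higher in KCl in wild type (log2 fold 1.17). By ORF name PDC6 (YGR087C) lies between PIL1 (YGR086C) and CTT1 (YGR088W), whose Rpb3 log2 folds in wild type were 3.24 and 5.38. The part of these neighbours in the PDC6 values was not tested. In Δhog1 none of the 39 passed 2-fold, with PDC6 at 4860 and 3750, and in Δsko1Δhot1 the same 4 genes did, in the same directions. A list of 53 genes that make other amino acids had 13 lower and 1 higher in wild type with a median of -0.60, 0 lower and 1 higher in Δhog1 with a median of 0.10, and 11 lower and 1 higher in Δsko1Δhot1 with a median of -0.52. The sulfur genes had 7, 1 and 5 lower of 32 in the same order. Over all ORFs 7.73%, 0.0665% and 7.97% were lower, and 4.49%, 1.03% and 6.19% were higher. At a share of 0.0665%, a count of 0 among 53 does not set MET17 in Δhog1 apart.

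Hog1 is known to enter the nucleus on osmotic shock and to bind stress genes. Hog1 enrichment is the Hog1 signal minus the mock IP, divided by input, and the study called an ORF occupied when its enrichment, its signal and its ratio of KCl to mock-treated signal were each 3 SD above the median. None of the 32 genes passed any of the 3 in wild type or in Δsko1Δhot1. Of the 6013 ORFs, 65 passed on enrichment, 50 on the ratio and 64 on signal in wild type. In Δsko1Δhot1 these counts were 16, 70 and 45. All 3 were passed by 32 ORFs in wild type and by 7 in Δsko1Δhot1. At such shares a count of 0 among 32 does not set the members apart. These ORF counts come from the filter and cutoffs computed here and differ from the study's own list of occupied ORFs. In wild type in KCl the members had a median enrichment of 0.505, against 0.497 for all ORFs, from 0.306 at MET16 to 0.728 at CYS3, with the cutoff at 1.584. In Δsko1Δhot1 the median was 0.279, against 0.179, and the highest was MET28 at 0.784, with the cutoff at 1.874.

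**Figure D5:**
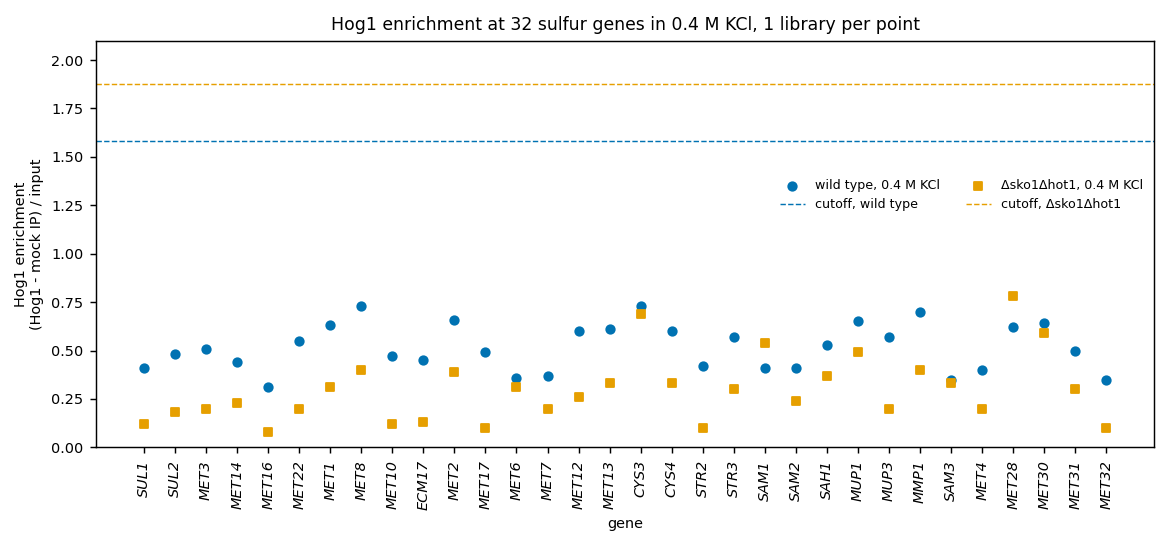
Hog1 enrichment, (Hog1 minus mock IP) over input, of each of the 32 genes after 5 min in 0.4 M KCl in wild type (circles) and Δsko1Δhot1 (squares), 1 library per point, with the cutoffs as dashed lines at 1.584 and 1.874. All points lie below both lines, the highest of wild type at 0.728 (CYS3) and of Δsko1Δhot1 at 0.784 (MET28).

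The Hog1 signal of the members differed little between treatments. The log2 fold of KCl over mock-treated ran from -0.40 at SAM1 to 0.51 at MET28 in wild type, with 25 of 32 below 0 (3366 of all 6013 ORFs were), and from -0.58 at SAM1 to 0.41 at MUP1 in Δsko1Δhot1. No member passed 2-fold in wild type (0.815% of all ORFs were higher and 0.2% lower) or in Δsko1Δhot1 (1.21% and 0.316%), nor in the ratio of Δsko1Δhot1 to wild type in KCl (0.133% and 2.25%). No member passed 2-fold in the controls either. The mock IP had log2 folds from -0.46 at MET14 to 0.93 at MET8 (2.1% of all ORFs were higher and 0.499% lower), and the input had -0.10 at MET7 to 0.32 at MET4 (0.0166% and 0.0333%). At MET28 the Hog1 signal was 13400 mock-treated and 19500 in KCl in wild type, the highest of the list in KCl, and 18500 and 21100 in Δsko1Δhot1. The mock IP at MET28 was 8520 and 13400, so the enrichment in wild type was 0.53 and 0.62. In mock-treated wild type CYS3 had an enrichment of 1.70, from a Hog1 signal of 21700, a mock IP of 6340 and an input of 9020, and it was 0.73 in KCl, where the mock IP was 9860. Both the Hog1 signal, which was 17800 in KCl, and the mock IP thus differ between the treatments at CYS3. CYS3 was not alone. In wild type the enrichment was 1.36 mock-treated and 0.64 in KCl at MET30, 1.32 and 0.66 at MET2, and 1.30 and 0.41 at SAM1. The mock IP was higher in KCl at each of them. Enrichment was higher in KCl at MET28, MET3 (0.46 and 0.51) and MET32 (0.27 and 0.35).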

How the data were processed

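Signal of 14 ChIP-seq libraries in the deposited ORF table was used, 1 per condition, grouped by their labels, and the Sko1 and Hot1 libraries were not used here. The authors deposited a coverage signal per ORF that they name RPKM, scaled to ORF length and library total. The submitters' processing notes name Bowtie and sacCer2 for the alignment, while the supplement names ELAND, both with no version. Uniquely alignable tags were extended in MATLAB, and overlapping parts of ORFs were left out. The size of the values points to covered bases, not reads, which is an inference, and no depth of a single library or counting interval can be given. The supplement gives a range of reads for the Hog1 samples and none for Rpb3.

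Of 6334 entries, 4 sharing 1 name and the 5% with the lowest summed input were left out, which left 6013. Log2 folds were taken with 989 added and counted from 2-fold on. The fold is understated at low signal. Computations used Python 3.11.15, numpy 2.4.6 and pandas 2.3.3, and folds were checked on simulated data. Every member is accounted for by role. The members and lists were chosen with earlier results of these data known. Values in every Rpb3 library are given for members past 2-fold, paralog pairs and regulators. Values of MET8, SAM3, MMP1 and the neighbours of MET28 were added later, with the values known. The R64 reference served for names and gene order only. The alternatives tried were other added constants, no input filter, input subtraction, division by input, centring on the median and a 1.5-fold count.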

Additional observations from a re-analysis of the deposited data

How the results depend on the processing

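No paired analysis was possible because the libraries carry no replicate numbers and each condition has 1 library. With 0.5 times the median input added, the lower genes numbered 4 in wild type, 0 in Δhog1 and 3 in Δsko1Δhot1, and with 0.02 times they numbered 2 in Δhog1. With input subtracted they numbered 13, 4 and 11, the higher genes 2, 1 and 3, and the median log2 folds were 0.00, 0.00 and 0.00, since values below input were set to 0. Division by input gave 3 lower genes in Δhog1. Counting from 1.5-fold gave 1 higher gene in wild type, 5 lower in Δhog1 and 8 lower in Δsko1Δhot1. Centring on the median of all ORFs gave a median fold of -0.07 in Δsko1Δhot1 and reversed the median ratio of Δsko1Δhot1 to wild type in mock-treated cells from 0.03 to -0.13. Median Hog1 enrichment was 1.26 in wild type and 1.04 in Δsko1Δhot1 without subtraction of the mock IP, and 1.63 and 1.35 as Hog1 over mock IP. Folds of 10 named genes were put through the same alternatives after the data were seen, with 157 kept on their side of 2-fold, 7 moved inside it, 16 moved past it and 0 reversed. Depth of each library is unknown, 1 library stands for each condition, and for members below input a signal above background was not established.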
